A study of Homo sapiens with 12 samples.

Results

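L1ME elements are copies of ancient long interspersed nuclear elements, taken here as every annotated repeat whose subfamily name starts with L1ME and whose reads lay on the strand of the element itself. Of 1514253 repeat elements that were listed on their own strand in any library, 85269 were L1ME elements of 27 subfamilies. Reads were collected by anti-V5 PAR-CLIP, in which 4-thiouridine-labelled RNA is crosslinked to protein by UV light and sequenced after immunoprecipitation. A375 human melanoma cells were transiently transfected with V5-tagged Clover (a green fluorescent protein that served as control), full-length ZC3H18 (Z18fl), truncated ZC3H18 (Z18trunc) or truncated ZC3H18 with its aromatic zinc-finger residues mutated (Z18truncZnFmut), and labelling began 24 h after transfection. There were 3 libraries for each of the 4 constructs, 12 in all, made from immunoprecipitations done in triplicate. Nothing used here says that they came from separate cultures, so p-values measure the spread between these libraries, which may be technical. Input RNA was not analysed here, so more RNA of an element in the cell and more of it bound cannot be told apart. The tables hold repeats alone, so transgene levels and melanoma markers were not analysed here.

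L1 elements encode the proteins that copy their RNA back into the genome. L1ME subfamilies were active early in mammalian evolution and can no longer move, and most copies are truncated, mutated fragments lying in introns or between genes. Transcribed copies are therefore mostly passengers in pre-mRNAs and non-coding RNAs. ZC3H18 is a nuclear CCCH zinc-finger protein that connects the cap-binding complex to the RNA exosome, which degrades nuclear transcripts.

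The L1ME copies were old, short and rich in A on their own strand. Over all 85269, the median divergence from the consensus was 261 on a per-thousand scale of bases, the median length 368 bp and the median AT content 67.8%, with 40.4% A and 26.6% T. By GENCODE annotation, 33.6% (28618) lay in an intron of a gene on the same strand, 29.0% (24756) antisense to a gene, 35.8% (30563) outside genes and 1.56% (1332) in a same-strand exon. The sequences of 6 loci on which the results turn are printed from hg38, 5′ to 3′ on the strand of the element, with runs of 5 or more A or of 5 or more T in capitals. Loci longer than 300 bp are shown by their central 300 bases. The first 4 were called higher in a ZC3H18 construct than in Clover and the last 2 lower.
PAN3 intron, L1MEc, chr13:28212202-28212501, plus strand: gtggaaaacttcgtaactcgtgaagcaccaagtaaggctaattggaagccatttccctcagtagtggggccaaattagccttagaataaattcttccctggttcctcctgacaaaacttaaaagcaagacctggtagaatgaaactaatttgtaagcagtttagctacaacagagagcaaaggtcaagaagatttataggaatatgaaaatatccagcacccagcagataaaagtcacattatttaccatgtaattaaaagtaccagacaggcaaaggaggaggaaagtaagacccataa
RFX7 intron, L1MEf, chr15:56222363-56222662, minus strand: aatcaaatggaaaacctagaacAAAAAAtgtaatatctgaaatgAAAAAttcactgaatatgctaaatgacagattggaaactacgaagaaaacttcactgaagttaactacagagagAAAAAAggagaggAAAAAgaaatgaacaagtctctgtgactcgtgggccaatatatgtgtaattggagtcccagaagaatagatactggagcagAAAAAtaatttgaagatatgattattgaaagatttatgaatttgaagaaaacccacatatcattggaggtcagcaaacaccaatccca
GAK intron, L1MEc, chr4:879562-879861, minus strand: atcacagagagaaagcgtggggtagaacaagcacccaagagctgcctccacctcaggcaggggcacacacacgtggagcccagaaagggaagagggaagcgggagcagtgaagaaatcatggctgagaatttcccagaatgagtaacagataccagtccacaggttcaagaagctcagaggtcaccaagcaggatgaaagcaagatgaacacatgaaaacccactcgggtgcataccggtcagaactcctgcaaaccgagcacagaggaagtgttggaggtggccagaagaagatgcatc
GMEB2 intron, L1MEd, chr20:63602097-63602241, minus strand: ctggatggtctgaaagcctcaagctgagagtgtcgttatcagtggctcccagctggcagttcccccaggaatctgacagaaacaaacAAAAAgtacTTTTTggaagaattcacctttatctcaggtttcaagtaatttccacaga
ZFYVE26 intron, L1ME4b, chr14:67783696-67783995, minus strand: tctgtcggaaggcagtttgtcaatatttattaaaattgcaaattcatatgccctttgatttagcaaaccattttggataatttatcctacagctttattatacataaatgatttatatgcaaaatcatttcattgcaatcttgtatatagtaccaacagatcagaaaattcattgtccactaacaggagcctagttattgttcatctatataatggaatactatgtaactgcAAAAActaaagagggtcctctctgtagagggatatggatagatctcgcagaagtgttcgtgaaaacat
Antisense to ENSG00000279501, L1ME3G, chr21:9014322-9014421, plus strand: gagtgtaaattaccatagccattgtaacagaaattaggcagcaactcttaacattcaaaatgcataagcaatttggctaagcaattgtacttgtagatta
The RFX7 window was 45% A and held 5 A runs. The PAN3, GAK and chromosome 21 windows held neither kind of run, the GMEB2 locus held 1 of each, and the ZFYVE26 window held 1 A run. Among the 50667 L1ME elements of at least 300 bp, 88.0% of the central 300-base windows contained AAAAA and 36.1% contained TTTTT, both read on the element strand alone.

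One library stood apart before any comparison. The third Z18truncZnFmut library listed 54062 L1ME elements, against 4919 to 18799 in each of the other 11, and 36917 elements were listed in it alone. It had 1.82 counts per listed element, against 2.36 to 3.27 elsewhere, and an AT content of L1ME reads of 66.2%, against 62.0 to 63.9%. The third Z18trunc library lay next to it on each of these values, with 18799 elements, 2.36 counts per element and 63.9% AT. Aligned fragments ranged from 16683132 to 25686948 per library and were lowest in the 3 Clover libraries, at 16683132 to 17673644. The main values of Z18truncZnFmut are therefore also given without its replicate 3.

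Which L1ME RNA came down with ZC3H18 was first asked of the family total. In Clover the L1ME level was 974, 792 and 773 CPM, which here means counts-per-million of aligned fragments. The Z18fl libraries held 1464, 1465 and 1625 CPM and the Z18trunc libraries 1460, 1554 and 1873 CPM. With the mutated zinc finger the values were 1283, 1318 and 4058 CPM. Every library of the ZC3H18 constructs thus lay above every Clover library. The mean level was 847 ± 111 in Clover and 1518 ± 92.5 in Z18fl (SD, n = 3 each), a 1.79-fold difference, and 1629 ± 216 in Z18trunc, a 1.92-fold difference. The two-sided exact permutation p was 0.1 for each construct, the smallest that 3 libraries against 3 allow, and 0.194 after adjustment over the 35 tests of this kind. Z18trunc and Z18fl overlapped (difference 111, exact permutation p = 0.7), and so did Z18truncZnFmut and Z18trunc (difference 590, exact permutation p = 1). Without the third Z18truncZnFmut library the latter difference turned to -329, and the difference of this construct from Clover went from 1373 to 454 CPM.

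The family also took a larger part of all transposable-element reads. Its share of the counts of 6 element classes was 2.33, 2.05 and 2.03% in Clover and 2.83, 2.97 and 2.95% in Z18fl. The truncated protein gave 2.63, 2.73 and 3.22%, and its zinc-finger mutant 2.41, 2.56 and 4.50%. Again no ZC3H18 library reached down to Clover, and the gap was smallest between the first Clover and the first Z18truncZnFmut library. Means were 2.14 ± 0.166% in Clover, 2.92 ± 0.0763% in Z18fl and 2.86 ± 0.316% in Z18trunc (SD, n = 3), with an exact permutation p of 0.1 and an adjusted p of 0.194 against Clover. For Z18truncZnFmut the difference from Clover was 1.02 percentage points, and 0.349 without its replicate 3.

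**Figure D1:**
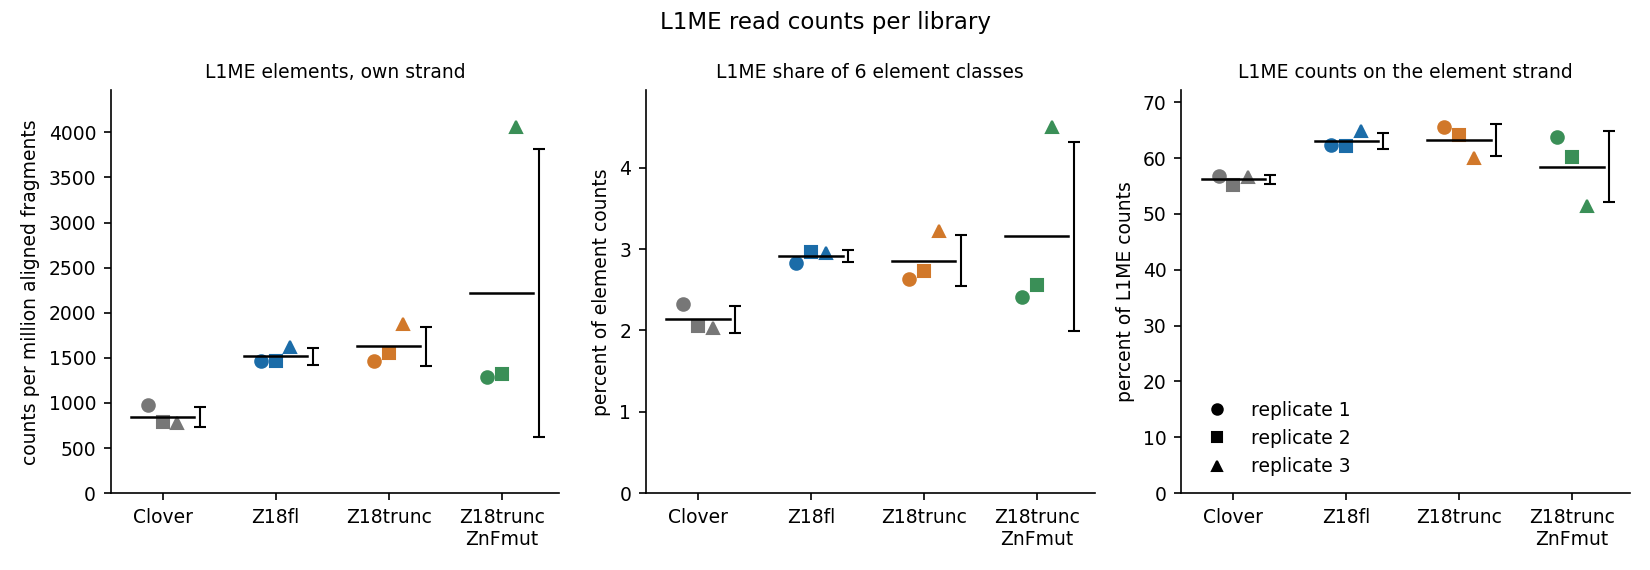
L1ME read counts in each of the 12 libraries as CPM of aligned fragments, as a percent of the counts of 6 element classes, and the percent of L1ME counts on the element strand. Points are libraries (circle, square and triangle for replicates 1 to 3), horizontal lines are means and bars are SD (n = 3). The third Z18truncZnFmut library is far above the others in the first 2 panels, at 4058 CPM and 4.50%, and is the lowest in the third, at 51.5%.

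L1ME was also higher relative to L1MC and L1MD and to L2, by unequal amounts. Against the counts of L1MC and L1MD, subfamilies of similar age, the log2 ratio of L1ME was 0.21, 0.16 and 0.13 in Clover and 0.31, 0.33 and 0.32 in Z18fl. The groups did not overlap, but their means differed by 0.15 on the log2 scale, and by 0.11 for Z18trunc over Clover. Against L2, an older LINE family without sequence similarity to L1, the log2 ratio was -0.997, -1.17 and -1.23 in Clover and -0.51, -0.54 and -0.39 in Z18fl. The means differed from Clover by 0.66 for Z18fl, by 0.71 for Z18trunc and by 0.58 for Z18truncZnFmut (0.52 without its replicate 3) on the log2 scale. Each of these had an exact permutation p of 0.1 (adjusted 0.194). L2 itself ranged from 1781 to 1945 CPM in Clover and from 2080 to 2130 CPM in Z18fl. Other L1 groups rose as well. Mean levels in Clover and Z18fl were 650 and 1341.5 CPM for L1M1 to L1M8, 371 and 908 for L1MA and 475 and 847 for L1MB. Relative to L1M1 to L1M8 and to L1MA, L1ME was lower in Z18fl than in Clover. These ratios were not tested.

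In Z18fl and Z18trunc, the intron share of L1ME counts was above Clover. L1ME copies in same-strand introns had 444, 366 and 377 CPM in Clover, 887, 868 and 989 CPM in Z18fl and 862, 928 and 970 CPM in Z18trunc. Z18truncZnFmut had 697, 720 and 1352, so its first 2 libraries lay between Clover and the other constructs. Exonic copies differed less, at 158 to 192 CPM in Clover against 212 to 229 for Z18fl, 199 to 217 for Z18trunc and 185 to 208 for Z18truncZnFmut. Neither Z18fl nor Z18trunc overlapped Clover there either. Copies outside genes also did not overlap Clover in these constructs, at 181, 142 and 114 CPM in Clover, 217, 228 and 240 for Z18fl and 223, 241 and 398 for Z18trunc. In Z18truncZnFmut they held 211, 228 and 1381 CPM, and copies antisense to a gene 169, 185 and 1116 CPM. The intron share of all L1ME counts was 45.5, 46.3 and 48.7% in Clover and 60.6, 59.3 and 60.9% in Z18fl. It was 59.0, 59.7 and 51.8% with Z18trunc and 54.4, 54.6 and 33.3% with Z18truncZnFmut. Z18fl and Z18trunc did not overlap Clover (differences 13.4 and 10.0 percentage points, exact permutation p = 0.1, adjusted 0.194), whereas Z18truncZnFmut did (difference 0.599 points, and 7.65 without its replicate 3). In the third Z18truncZnFmut library, antisense and intergenic copies held 27.5 and 34.0% of L1ME counts, against 10.2 to 16.3% and 14.7 to 21.3% in the other 11.

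**Figure D2:**
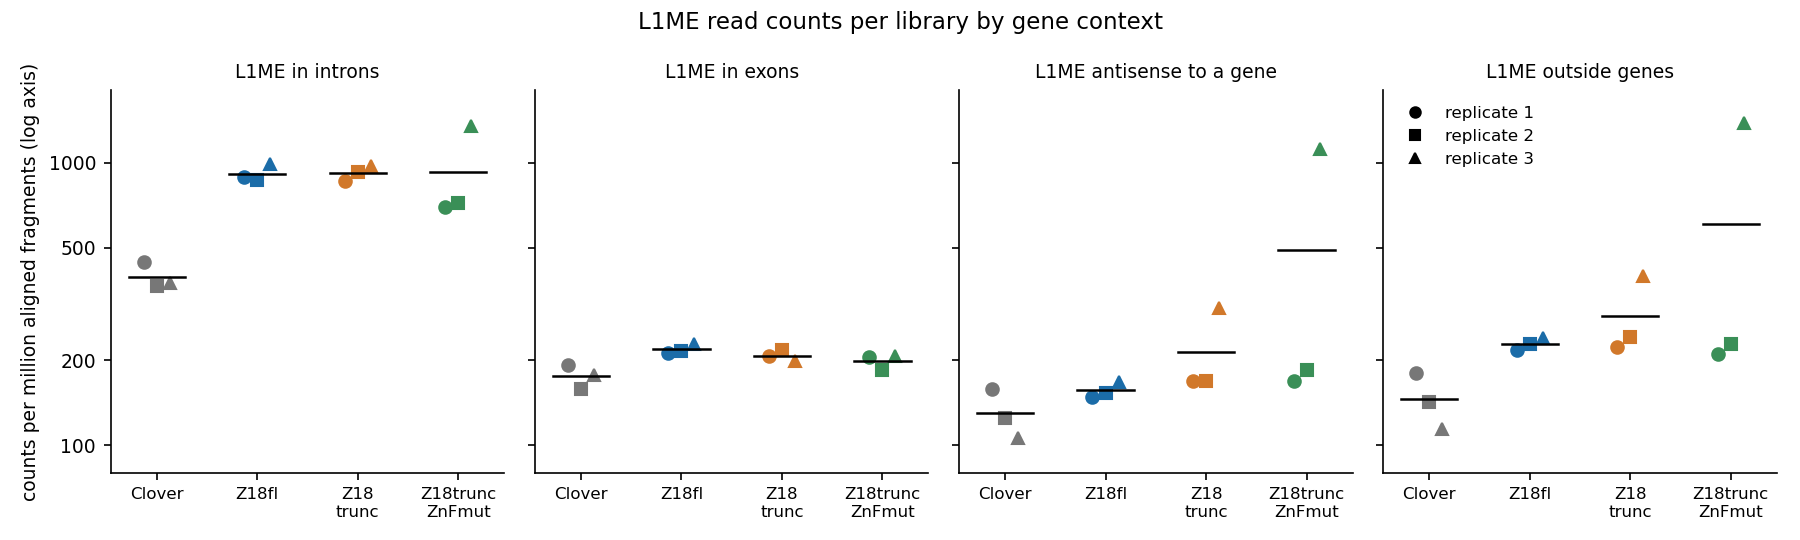
L1ME level in CPM of aligned fragments (log axis) in each library, split by where the copy lies: introns, exons, antisense to a gene, or outside genes. Points are libraries, lines are arithmetic means and no error bars are drawn. Intronic copies are at 366 to 444 in Clover and 868 to 989 in Z18fl, while exonic copies stay between 158 and 229 in all 12 libraries.

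A larger part of L1ME reads lay on the strand of the element. Of all L1ME counts on either strand, 56.7, 55.2 and 56.6% were sense in Clover, 62.4, 62.1 and 64.8% in Z18fl and 65.5, 64.1 and 60.0% in Z18trunc. The groups did not overlap Clover (differences 6.89 and 7.02 percentage points, exact permutation p = 0.1, adjusted 0.194). In Z18truncZnFmut the sense share was 63.7, 60.2 and 51.5%, below Clover in replicate 3 alone. The AT content of L1ME weighted by counts was 62.6, 62.4 and 62.0% in Clover and 62.5, 62.6 and 62.7% in Z18fl, which overlapped. Z18trunc, at 62.8, 62.9 and 63.9%, overlapped neither Clover nor Z18fl (differences 0.826 and 0.548 percentage points, exact permutation p = 0.1, adjusted 0.194 for each). Without its replicate 3 these differences were 0.473 and 0.195 points.

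At the level of single copies, few L1ME elements had enough reads to test. Of the 85269 elements, 1210 reached 10 counts in some library, 666 were listed in all 12 libraries, and 540 passed the low-count filter of at least 1 comparison. Elements that passed through the group where they were high had to differ, so the counts of calls describe tested loci and not the family. Calls are edgeR quasi-likelihood tests with a Benjamini-Hochberg adjusted p under 0.05 over all loci, with trimmed-mean scaling.

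In Z18fl against Clover, 100 of 266 tested L1ME loci rose and 36 fell. Over all 12098 loci tested, 28.3% rose and 24.6% fell, and the corresponding shares of L1ME were 37.6 and 13.5%. The median log2 fold change was 0.44 for L1ME and 0.01 for all loci. Among relatives, 34.4% of L1MC and L1MD loci and 49.5% of L1M1 to L1M8 loci rose, whereas 12.4% of L2 loci rose and 35.5% fell. Of the other L1 groups, 66.4% of L1MA, 62.0% of L1PB and L1P1 to L1P5, 56.0% of L1PA with L1HS and 38.8% of L1MB loci rose. The share of HAL1 loci that rose was 31.9%. With library sizes set to aligned fragments in place of trimmed-mean scaling, the median of all loci shifted to 0.37 and L1ME calls became 123 higher and 20 lower. Without Z18fl replicate 1 or 3 the lower calls were 20 of 224 and 19 of 218 tested L1ME loci.

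In Z18trunc against Clover, 93 of 286 L1ME loci rose and 26 fell, against 22.5 and 13.4% of all 13204 loci. The L1ME shares were 32.5 and 9.09%, with a median log2 fold change of 0.38 against -0.03 for all loci. The share that rose was 73.7% for L1MA, 65.9% for L1PB and L1P1 to L1P5, 58.6% for L1PA with L1HS and 52.4% for L1M1 to L1M8. It was 35% for HAL1, 33% for L1MB, 31.5% for L1MC and L1MD and 3.93% for L2. On aligned fragments the median of all loci shifted to 0.31 and L1ME calls became 111 higher and 5 lower. Without Z18trunc replicate 2, 58 of 212 tested L1ME loci rose and 9 fell, and 14 of 215 fell without its replicate 1. Without Clover replicate 1 or 2, more loci were tested, and 141 of 545 and 140 of 536 rose.

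Z18truncZnFmut against Clover gave fewer calls, with 17 of 184 L1ME loci higher and 8 lower, against 12.3 and 4.83% of all 10152 loci. The L1ME share higher, 9.24%, was below that of all loci, and the median was -0.05 for both. Among relatives the share was 57.6% for L1MA, 49.5% for L1PB and L1P1 to L1P5, 47.1% for L1PA with L1HS and 27.4% for L1M1 to L1M8. It was 10.6% for L1MB, 7.73% for L1MC and L1MD, 6.25% for HAL1 and 0.662% for L2. Without its replicate 3, 12 of 181 tested L1ME loci rose and 6 fell. Without its replicate 1, 10 of 155 rose and 1 fell, and without its replicate 2, 10 of 162 rose and 5 fell. Without Clover replicate 1 or 3, 1 of 319 or 2 of 317 fell. On aligned fragments the calls were 24 higher and 2 lower, with a median of 0.15 over all loci.

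Most of the L1ME loci that rose were intronic. In Z18fl, 61 of 130 intronic L1ME loci rose and 12 fell (46.9 and 9.23%), with a median log2 fold change of 0.98. Other intronic loci had a median of 0.64, with 41.7% higher and 12.9% lower. Of 78 exonic L1ME loci, 16 rose and 15 fell (20.5 and 19.2%), with a median of -0.20. Other exonic loci had a median of -0.64, with 11.3% higher and 43.0% lower. In Z18trunc, 76 of 148 intronic L1ME loci rose and 10 fell (median 1.03, against 0.46 over other intronic loci), while 4 of 79 exonic loci rose and 12 fell (median -0.22). Intergenic L1ME loci rose in 13 of 28 cases in Z18fl and 8 of 28 in Z18trunc (46.4 and 28.6%), against 27.8 and 23.4% of other intergenic loci. In Z18truncZnFmut, 11 of 82 intronic L1ME loci rose and 4 fell (13.4 and 4.88%, median 0.07). Of other intronic loci, 21.5% were higher and 1.70% lower. The intronic median without replicate 3 of that construct was 0.26. On aligned fragments the exonic L1ME medians turned positive, at 0.16 in Z18fl and 0.11 in Z18trunc.

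Most exonic copies lay in untranslated regions. Of the 78 tested in Z18fl, 52 lay in an untranslated region of a coding gene (7 higher, 12 lower, median log2 fold change -0.31), 18 in exons of non-coding genes (7 higher, 1 lower, median 0.63) and 8 in exons of coding genes without coding sequence at that place (2 higher, 2 lower). None of the exonic copies lay mainly in coding sequence. Shares for these parts over other repeats are not given here, while 11.3% of all other exonic loci rose and 43.0% fell.

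**Figure D3:**
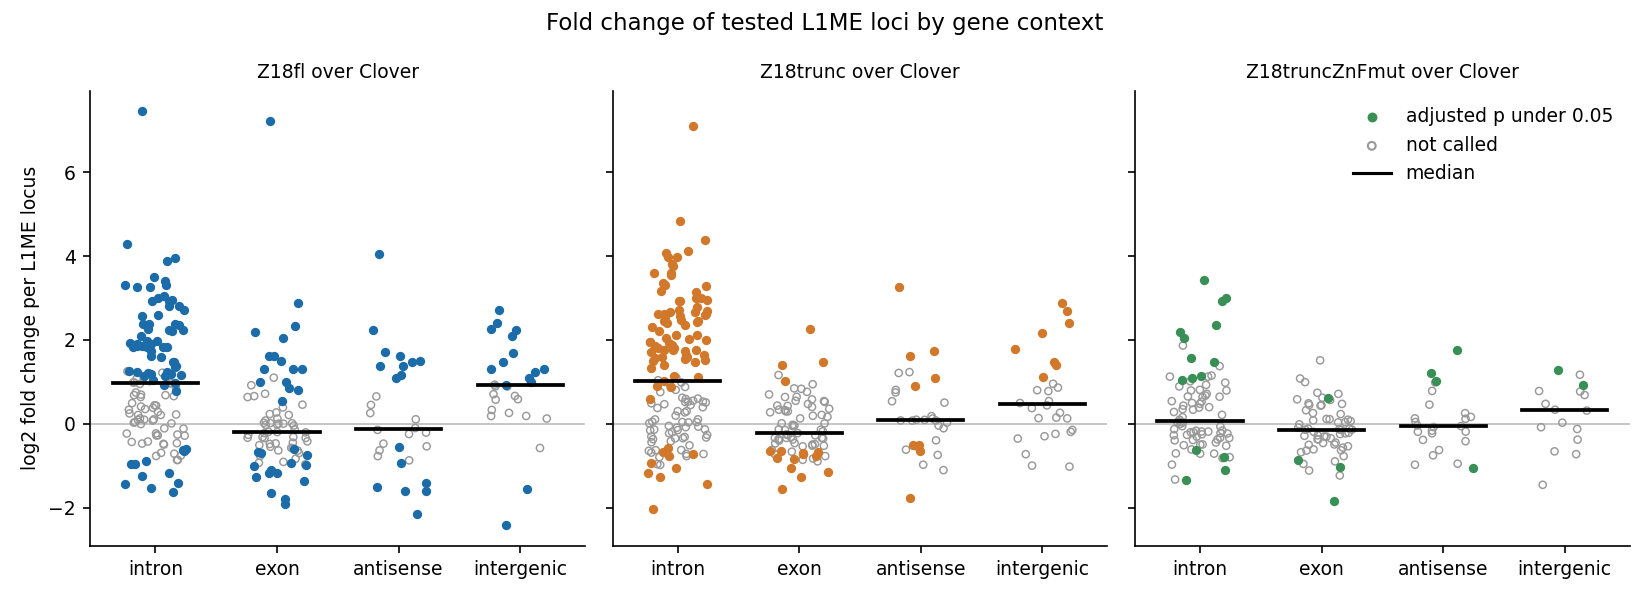
Log2 fold change over Clover of each tested L1ME locus, by gene context, for the 3 ZC3H18 constructs. Filled points have an edgeR adjusted p under 0.05, open points do not, and black lines are medians. Intronic medians are 0.98 (Z18fl), 1.03 (Z18trunc) and 0.07 (Z18truncZnFmut), and the points near 7 are loci without a count in Clover, whose fitted value depends on the prior count.

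Loci that rose had a larger median length than loci that fell. Median lengths were 691 bp for the 100 higher and 434 bp for the 36 lower loci in Z18fl, and 976 against 500.5 bp in Z18trunc. Divergence was close in both, with per-thousand medians of 271 and 265.5 in Z18fl. TTTTT in the central window was counted in loci of at least 300 bp. In Z18fl it was present in 25.3% of 87 higher, 30.4% of 23 lower and 23.8% of all 210 tested loci. The shares were 30.2% of 86, 36.8% of 19 and 26.5% of 223 in Z18trunc. In Z18truncZnFmut they were 31.25% of 16, 60% of 5 and 23.6% of 140. Shares of higher and of tested loci were below the 36.1% of all L1ME elements of that length. The family is not a matched reference, since the median AT content of tested loci was 60.2% in Z18fl, against 67.8%.

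Compared with each other, the ZC3H18 constructs gave few calls at L1ME loci. Z18trunc against Z18fl gave 13 higher and 12 lower of 520, against 2.62 and 3.13% of all 19413 loci, and the median was -0.05. On aligned fragments the calls were 13 higher and 4 lower. Leaving out any single library left 1 to 9 higher and 1 to 10 lower, of 601 to 642 tested. The higher calls went to 1 without Z18fl replicate 2, and the lower calls to 1 without Z18trunc replicate 1. Z18truncZnFmut against Z18trunc gave no call among 398 L1ME loci, against 0.368% higher and 0.351% lower of all 16833. At an unadjusted p under 0.05, 8 of these L1ME loci were higher and 42 lower, 50 of 398, against 2417 of 16833 over all loci. DESeq2 called 0 higher and 1 lower, leaving 324 without an adjusted p. The median log2 fold change of the 398 L1ME loci was -0.16, against 0.01 for all loci. It was -0.30 over the 230 intronic ones, against -0.11 over other intronic loci. In simulated data the locus fits recovered 24% of 2-fold changes for Z18trunc against Z18fl. For Z18truncZnFmut against Z18trunc they recovered 22%. Few calls therefore do not show that the constructs were equal.

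Single loci were named first by size, replicate separation, count and mapping score, which few met. The rises in Z18fl were at the L1MEd copy in an intron of GMEB2, a DNA-binding modulator of glucocorticoid-responsive genes, and the L1MEc copy in an intron of SH3YL1 (chr2:258439-259129, minus strand). GMEB2 had 1, 7 and 2 counts in Clover and 30, 32 and 33 in Z18fl. Its log2 fold change was 2.37 ± 0.51 (SE, edgeR adjusted p = 0.000789). SH3YL1 had 4, 5 and 2 counts against 27, 22 and 18, a log2 fold change of 1.75 ± 0.50 (edgeR adjusted p = 0.00664). Neither locus overlapped Clover in Z18fl. The copy at DLD and the chromosome 21 copy described further on were named by it as falls. Since 81 of the 100 higher loci in Z18fl did not overlap Clover and had at least 20 mean counts, but 2 met the score of 90, the loci below were named by a call that also stood on uniquely mapping reads. That rule was chosen after the values were seen. Loci with few Clover reads, such as those at GMEB2, SH3YL1, RFX7 and IQCB1, passed the low-count filter through the ZC3H18 libraries. They were then picked for large fold changes, so their p-values, and settings that keep their calls, add no support beyond the counts.

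The L1MEc copy in PAN3, which encodes a subunit of a poly(A)-shortening nuclease, lies at chr13:28211692-28213011 on the plus strand. It had 0 counts in each Clover library, 29, 25 and 30 in Z18fl, 25, 22 and 19 with Z18trunc and 16, 6 and 4 with Z18truncZnFmut. Every ZC3H18 library thus had reads where Clover had none. Against a floor of 3 counts over the Clover group, the level was at least 20.1-fold higher in Z18fl and at least 15.8-fold higher in Z18trunc (edgeR adjusted p = 1.48e-05 and 5.13e-05). The locus had no Clover read, so it passed the low-count filter only through the ZC3H18 libraries. These p-values therefore add no support beyond the counts.

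The L1MEf copy in RFX7, a winged-helix transcription factor gene, was named in both truncated constructs. It spans chr15:56221459-56223566 on the minus strand. Counts were 3, 2 and 4 in Clover, 30, 26 and 63 in Z18fl, 81, 72 and 71 with Z18trunc and 48, 30 and 39 with Z18truncZnFmut. Clover was far below the rest, and Z18trunc was above Z18fl in every library. The log2 fold change over Clover was 3.01 ± 0.47 in Z18truncZnFmut (edgeR adjusted p = 5.56e-05) and 3.77 ± 0.37 in Z18trunc (edgeR adjusted p = 2.8e-07). Z18trunc exceeded Z18fl by 0.86 ± 0.23 on the log2 scale (edgeR adjusted p = 0.0307).

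IQCB1, a gene for a ciliary protein, holds a long L1MEc copy in an intron (chr3:121803351-121806197, minus strand). Its counts were 2, 0 and 0 in Clover, 26, 18 and 36 in Z18fl and 46, 37 and 31 in Z18trunc. The log2 fold change was 4.29 ± 0.73 in Z18fl (edgeR adjusted p = 0.000106) and 4.83 ± 0.67 in Z18trunc (edgeR adjusted p = 1.54e-05). Other intronic copies named in Z18fl were in MTERF4, GARS1, GTF2E2 and the non-coding CKMT2-AS1, with log2 fold changes from 2.96 to 3.51. In Z18trunc, copies in GARS1, SHLD2 and CKMT2-AS1, 2 in RPTOR and 1 outside genes rose by 2.89 to 3.98 on the log2 scale.

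Some genes held more than 1 tested copy. In Z18fl there were 33 such genes, of which 3 (GAK, GARS1 and PCGF3-AS1) had every tested copy higher, 1 (RRP36) had every copy lower and 8 had no call. GAK, which encodes a kinase of clathrin uncoating, had 6 tested intronic L1ME loci, all 6 of which rose in Z18fl, with log2 fold changes from 0.97 to 3.31. In Z18trunc 4 of them rose, and in Z18truncZnFmut 1 of 4 tested. RPTOR, the scaffold of the mTORC1 kinase complex, had 4 of 5 higher in Z18fl and 4 of 4 in Z18trunc. The 100 loci that rose in Z18fl included 77 in 66 same-strand genes. Copies in one gene share its transcript and are not independent. The GAK copy shown above (whole span chr4:879518-879905, minus strand) had 53, 58 and 51 counts in Clover, 196, 149 and 230 in Z18fl, 129, 132 and 118 with Z18trunc and 139, 76 and 109 with Z18truncZnFmut. Z18fl was highest in every library, by 0.97 ± 0.17 on the log2 scale over Clover (edgeR adjusted p = 0.00017), and Z18trunc lay 0.67 below Z18fl (SE 0.15, edgeR adjusted p = 0.0141).

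**Figure D4:**
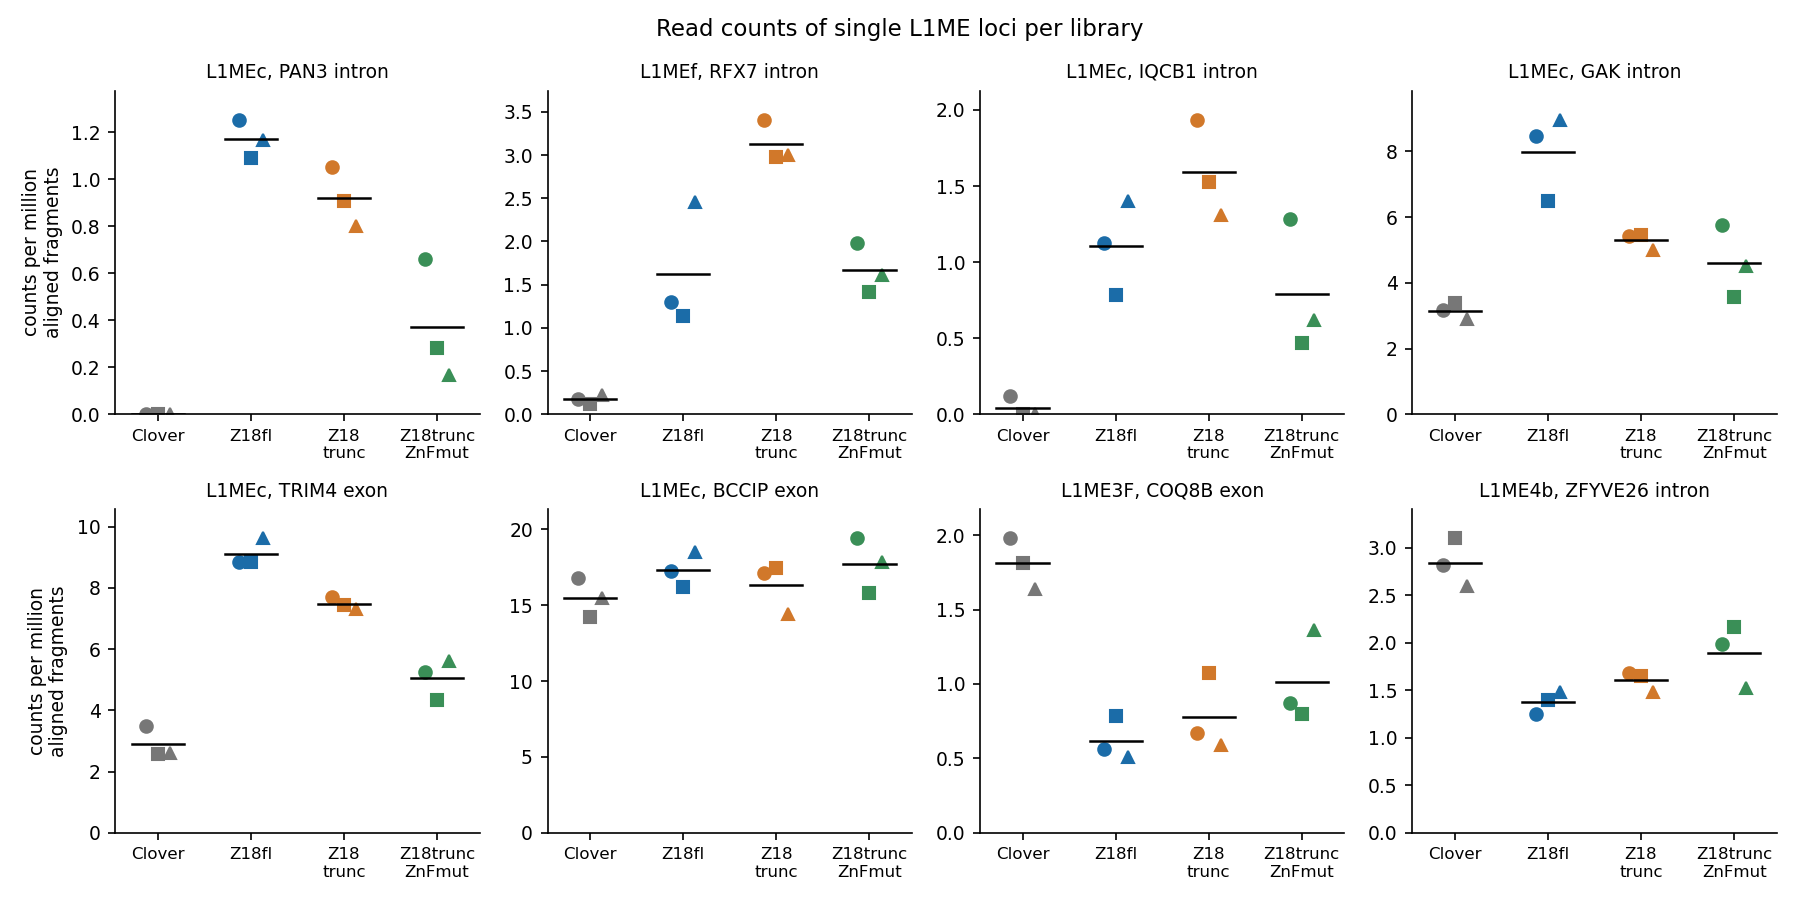
Level in CPM of aligned fragments at 8 single L1ME loci in each of the 12 libraries, titled by subfamily, gene and context. Points are libraries, with circle, square and triangle for replicates 1 to 3, and lines are means (n = 3). The PAN3 copy is at 0 in all 3 Clover libraries, the BCCIP copy is at mean levels of 15.5 to 17.7 CPM in the 4 groups, and the COQ8B and ZFYVE26 copies are highest in Clover.

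Among the most abundant copies, calls went both ways or were absent. In CPM per kilobase, the highest mean level over the 12 libraries was 47.9 at an L1ME4c copy of 105 bp (chr16:2642858-2642962, plus strand), antisense to ENSG00000290728. Then came the L1MEc copy in the untranslated region of BCCIP, a BRCA2-interacting protein gene, at 20.5 (chr10:125841948-125842763, plus strand), the GAK copy at 13.5, the chromosome 21 L1ME3G copy at 13.2 and the L1MEd copy in the untranslated region of AP1M1, an adaptor of clathrin-coated vesicles, at 12.8 (chr19:16236280-16236682, plus strand). This order differed between constructs, since the GAK copy was at 8.12 and the chromosome 21 copy at 18.6 CPM per kilobase in Clover, but at 20.5 and 7.85 in Z18fl. BCCIP had 280, 243 and 274 counts in Clover and 400, 372 and 475 in Z18fl. These were 15.5 ± 1.29 and 17.3 ± 1.14 CPM (SD, n = 3), and the log2 fold change of -0.20 ± 0.12 did not pass the test (edgeR adjusted p = 0.167). The chromosome 16 copy fell by 0.56 (SE 0.17, edgeR adjusted p = 0.0112) in Z18fl, although its CPM overlapped Clover.

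Of the 36 lower loci in Z18fl, 15 were exonic, 12 intronic and 7 antisense to a gene. COQ8B, needed for coenzyme Q synthesis, had an L1ME3F copy in an exon without coding sequence (chr19:40701904-40702334, minus strand). Its counts were 33, 31 and 29 in Clover, 13, 18 and 13 in Z18fl and 16, 26 and 14 in Z18trunc. Every Clover library had more reads than these 6, although Clover was sequenced least. Its log2 fold change was -1.91 ± 0.32 in Z18fl (edgeR adjusted p = 8.98e-05) and -1.55 ± 0.31 in Z18trunc (edgeR adjusted p = 0.000612). ZFYVE26, a gene for an endosomal zinc-finger protein, had an intronic L1ME4b copy with 47, 53 and 46 counts in Clover and 40, 40 and 35 in Z18trunc, a log2 fold change of -1.17 ± 0.23 (edgeR adjusted p = 0.000556). The antisense L1MEb copy at DLD (chr7:107920389-107920960, minus strand), a gene for a mitochondrial dehydrogenase, had 29, 29 and 25 counts in Clover and 19, 10 and 14 in Z18trunc (log2 fold change -1.76 ± 0.34, edgeR adjusted p = 0.000435). Copies in IBA57 and RRP36 and antisense to ENSG00000286192 were also among the lower loci named.

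The chromosome 21 L1ME3G copy fell in Z18fl and not in Z18trunc. Its counts were 41, 35 and 19 in Clover, 17, 22 and 17 in Z18fl, 39, 36 and 41 with Z18trunc and 33, 19 and 20 with Z18truncZnFmut. Only the Z18fl libraries lay wholly below Clover per aligned fragment. The log2 fold change was -1.59 ± 0.34 in Z18fl over Clover (edgeR adjusted p = 0.000747), -0.54 ± 0.29 in Z18trunc (edgeR adjusted p = 0.166) and 0.97 ± 0.28 in Z18trunc over Z18fl (edgeR adjusted p = 0.0432). This difference between the constructs was lost under 10 of 14 alternative settings. In Z18truncZnFmut the copy fell by 1.05 on the log2 scale (edgeR adjusted p = 0.035). Other copies higher in Z18trunc than in Z18fl were intronic in UBE2O, RRAS2 and SENP1 or outside genes (log2 fold changes 1.17 to 1.94). The call at RRAS2 was lost under 9 of 14 alternative settings, at SENP1 under 8, at the copy outside genes under 3 and at UBE2O under 1. UBE2O, which encodes a ubiquitin-conjugating enzyme, had 5, 6 and 6 counts in Z18fl and 23, 27 and 20 in Z18trunc. The UBE2O copy thus passed the low-count filter through Z18trunc and was picked for a large fold change. Neither its call nor the settings that kept it add support beyond the counts. Among copies lower in Z18trunc, the L1ME3A copy in an exon of AKT2, a kinase of insulin signalling, had 36, 36 and 54 counts in Z18fl and 21, 21 and 18 in Z18trunc (log2 fold change -1.13 ± 0.26, edgeR adjusted p = 0.0131, lost under 5 of 14 settings).

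In Z18truncZnFmut the named rises were at 7 copies. Beside RFX7 and a GAK copy these were in TRIM4, PDCD6-AHRR and the non-coding ENSG00000285999 and at 2 places antisense to MROH1. TRIM4, a ubiquitin ligase gene, holds an L1MEc copy mainly in its untranslated region (chr7:99900482-99902222, minus strand). It had 58, 44 and 46 counts in Clover, 205, 203 and 247 in Z18fl, 183, 180 and 173 with Z18trunc and 127, 92 and 136 with Z18truncZnFmut. In raw counts the 4 groups did not overlap, with Z18fl highest, then Z18trunc, Z18truncZnFmut and Clover. The log2 fold change over Clover was 1.30 ± 0.17 in Z18fl (edgeR adjusted p = 7.98e-06), 1.03 ± 0.17 in Z18trunc (edgeR adjusted p = 0.000122) and 0.62 ± 0.21 in Z18truncZnFmut (edgeR adjusted p = 0.0448). The call in Z18truncZnFmut was lost under 8 of 14 alternative settings, among them DESeq2, and without replicate 3 of that construct the value was 0.51 (edgeR adjusted p = 0.179). The calls at PDCD6-AHRR and at 1 of the MROH1 copies were also lost under 8 of 14 settings, that at the GAK copy under 3, at the other MROH1 copy under 2 and at RFX7 and ENSG00000285999 under 0. The copy in ALMS1 fell, a call lost under 2 of 14 settings, and that in ZFYVE26 was called lower but lost the call under 9 of 14.

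Summed over copies, most L1ME subfamilies rose in Z18fl and Z18trunc. All 27 L1ME subfamilies were testable. In Z18fl 17 rose and 0 fell, against 20.1% higher and 20.1% lower of 915 subfamilies of all kinds. At an unadjusted p under 0.05, 19 were higher and 0 lower, against 424 of all 915 in either direction. DESeq2 called 14 higher and 0 lower. The median log2 fold change was 0.36 for L1ME and -0.01 for all. In Z18trunc 14 rose and 0 fell, against 14.5 and 11.9% of 925, with medians of 0.44 and -0.01. At an unadjusted p under 0.05, 19 were higher and 0 lower, against 308 of all 925 in either direction. DESeq2 again called 14 higher. On aligned fragments the median of all subfamilies shifted to 0.45 and 0.48, and 26 L1ME subfamilies rose in each.

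L1MEc was called in both and was among the most abundant. Its counts were 1660, 1365 and 1383 in Clover, 4494, 4295 and 5727 in Z18fl, 4872, 5424 and 5536 with Z18trunc and 4227, 3373 and 9984 with Z18truncZnFmut. No ZC3H18 library came near Clover. The log2 fold change was 0.76 ± 0.08 in Z18fl (edgeR adjusted p = 8.58e-07) and 0.88 ± 0.09 in Z18trunc (edgeR adjusted p = 1.29e-06). L1MEi followed with 0.70 ± 0.10 and 0.73 ± 0.11. The small subfamilies L1MEa and L1MEg2, with 119 and 199 listed elements and 8 to 18 counts per Clover library, had 0.84 ± 0.32 and 0.72 ± 0.27 in Z18fl. Both lost the call with DESeq2.

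At the other end, L1MEg1, L1ME3A, L1ME4c and L1ME4b did not pass the test in any construct with trimmed-mean scaling. Their log2 fold changes in Z18fl were -0.22 ± 0.12, -0.11 ± 0.07, -0.08 ± 0.08 and 0.10 ± 0.07. The first 3 turned positive on aligned fragments, at 0.25, 0.35 and 0.39, and on that scale L1ME3A, L1ME4c and L1ME4b passed the test in Z18fl and Z18trunc while L1MEg1 did not. L1MEg1 had 16.5% of its Clover counts in introns and L1ME3A 28.7%, against 40.5% for L1MEc and 64.5% for L1MEi. Over the 27 subfamilies, the rank correlation of the Z18fl log2 fold change with the intron share in Clover was 0.37, with the median length 0.30 and with the median divergence -0.0037. These are descriptions, since all 27 points come from the same libraries and the first shares Clover with the fold change.

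In Z18truncZnFmut no L1ME subfamily passed the test, against 1.3% higher and 0% lower of 921. The median log2 fold change was 0.32 and the smallest adjusted p was 0.0682 (L1MEg). At an unadjusted p under 0.05, 11 were higher, against 171 of all 921 in either direction. DESeq2 called 4. Without its replicate 3, 8 rose by edgeR. The largest fitted values were 0.99 ± 0.39 for L1MEg2, 0.61 ± 0.15 for L1MEh, 0.58 ± 0.13 for L1MEg and 0.56 ± 0.15 for L1MEc, with adjusted p-values from 0.0682 to 0.219. Without replicate 3 they were 0.54, 0.63, 0.57 and 0.63, and all but L1MEg2 (edgeR adjusted p = 0.508) passed the test. Neither Z18trunc against Z18fl (1.48 and 2.43% of 948) nor Z18truncZnFmut against Z18trunc (0 and 0% of 957) gave an L1ME call by edgeR or DESeq2. At an unadjusted p under 0.05, 1 was higher in the former and 0 in the latter, against 181 of 948 and 49 of 957 over all subfamilies. Fitted values ranged from -0.16 to 0.20 in the former and from -0.28 to 0.37 in the latter.

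**Figure D5:**
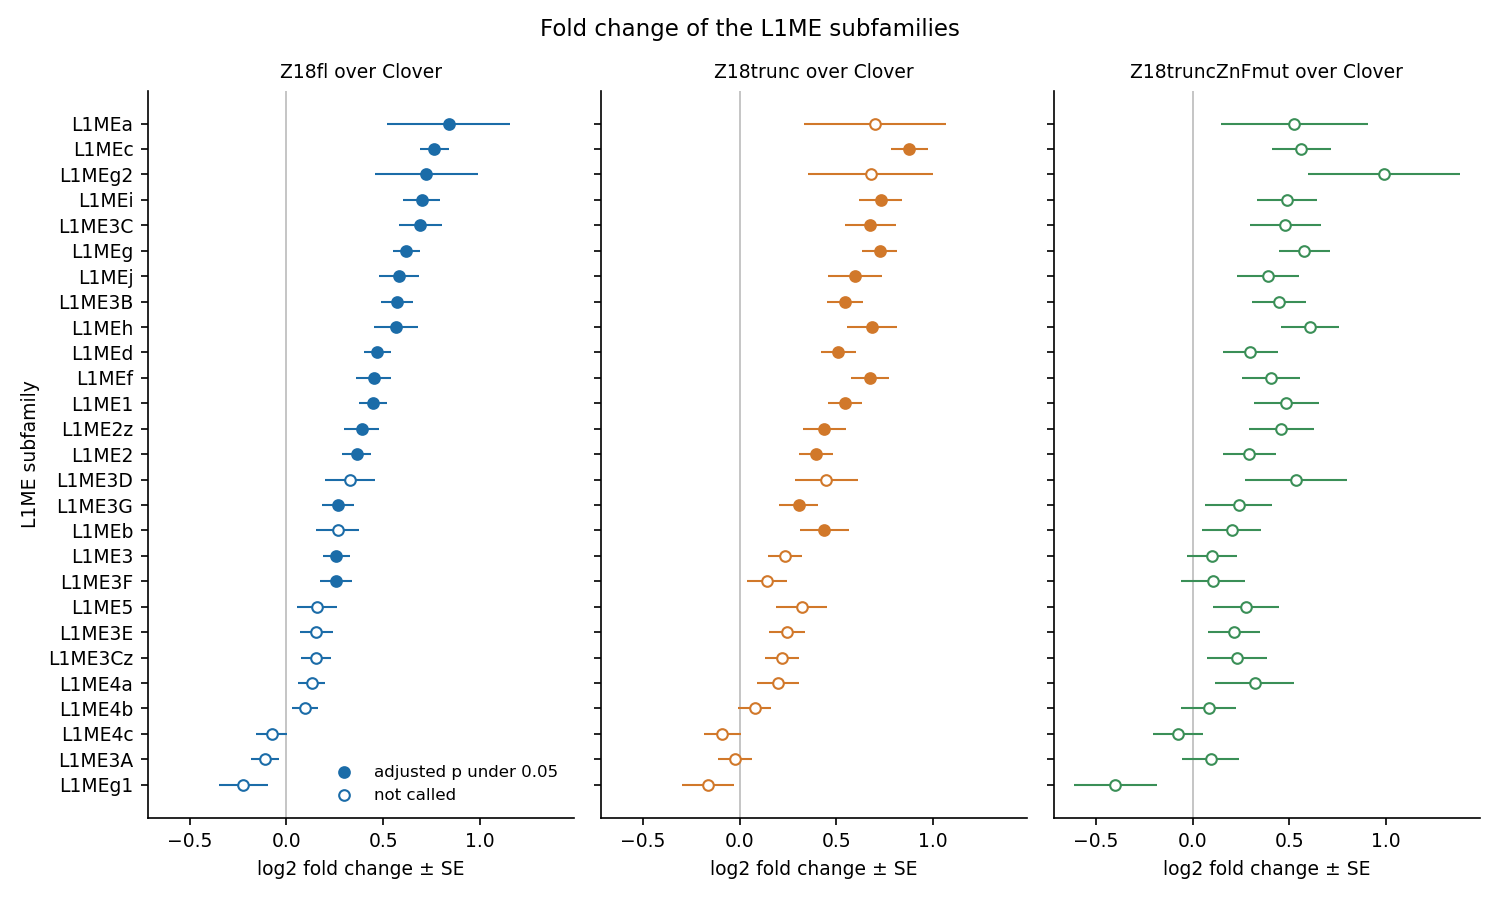
Log2 fold change over Clover with SE for the 27 L1ME subfamilies, ordered by the Z18fl value, in the 3 ZC3H18 constructs. Filled points have an edgeR adjusted p under 0.05. There are 17 filled points for Z18fl and 14 for Z18trunc, and none for Z18truncZnFmut, where the bars are wider.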

How the data were processed

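Anti-V5 PAR-CLIP libraries were ribo-depleted and stranded. Per the labels, the reads were trimmed with cutadapt 4.6 and the build was hg38. Per the methods, the authors counted repeats with SQuIRE, which assigns multi-mapping reads by expectation maximization, and did no protein size selection. The deposited tables list, per element, uniquely mapping read counts, expected counts that add shared reads, a score, the percent of all reads aligning to the element that its expected count makes up, the number of aligned fragments and the divergence from the consensus. Shared reads make near-identical copies less certain than unique ones.

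Same-strand expected counts were rounded before testing. Subfamily values were sums. Loci of 6 classes (LINE, SINE, LTR, DNA, retroposon and rolling-circle elements) were tested together with edgeR 4.0.16 in R 4.3.3 (TMM, filterByExpr, quasi-likelihood), with 6 libraries per fit, and DESeq2 1.42.0 was an alternative. Standard errors were derived from the F statistic. Gene context came from GENCODE 44: at least 50% of length in same-strand exons for exon, otherwise the midpoint in a same-strand gene for intron. Family totals were tested by exact permutation, 35 tests from 7 measures and 5 comparisons. The fits were tested on simulated data. Floors of 3 counts cover counting error only, since reads carry no molecular identifiers.

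Loci were named by the largest log2 fold changes among calls whose groups did not overlap, where the higher group averaged 20 counts or more and scored 90 or more (8 higher and 4 lower per construct against Clover, 4 each way otherwise), plus the 5 highest levels among elements of at least 100 bp. For subfamilies the 4 largest and 4 smallest were named. In a second pass the score was replaced by a call on uniquely mapping reads. One locus that this pass named is not reported here. Members and lists were chosen with earlier results of these data known. Alternatives were DESeq2, aligned-fragment library sizes, no low-count filter, either strand, unique reads, a joint fit of the 12 libraries, inclusion of every repeat class, a replicate block and leaving out each library. Between libraries of one group the chi-square per degree of freedom over tested L1ME loci was 1.35 to 2.25, so none were taken as duplicates.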

Additional observations from a re-analysis of the deposited data

Results flagged for a closer look

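Reads on the strand opposite to L1ME elements entered no comparison of element-strand reads, and they too were above Clover. Antisense L1ME reads had a mean of 659 CPM of aligned fragments in Clover, 887.4 in Z18fl and 962.8 in Z18trunc (n = 3 each). The libraries held 743, 643 and 592 CPM in Clover, 883, 896 and 883 CPM for Z18fl and 768, 870 and 1251 CPM for Z18trunc, so neither construct overlapped the control. With Z18truncZnFmut they held 729, 871 and 3827 CPM, which did overlap. These differences were not tested. Groups of 3 libraries are too small for a search for single outlying values.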

How the results depend on the processing

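Among recomputed values for single loci and subfamilies, 810 kept direction and side of the threshold, 123 lost the call, 13 gained one and 18 turned sign. Of 85269 elements, 540 could be tested, and why the others had few reads was not tested. Where a value changed, the cause was not tested, except that without the low-count filter 28807 or more L1ME loci entered each comparison and that leaving out a library removed reads.

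The number of L1ME loci tested changed with the setting, so calls are given with it. The shares over all loci in these settings are not given here. For Z18fl over Clover, L1ME loci higher numbered 175 of 28807 without the filter, 62 of 181 on uniquely mapping reads and 187 of 552 with all 12 libraries in a single fit. In the main fit they were 100 of 266. Loci lower numbered 20 of 266 on aligned fragments, 11 of 28807 without the filter and 62 of 385 on either strand, against 36 of 266. For Z18trunc over Clover, loci higher numbered 195 of 33863 without the filter, 60 of 191 on unique reads and 151 of 552 in the joint fit. Loci lower numbered 12 of 286 with DESeq2, 5 of 286 on aligned fragments and 1 of 33863 without the filter. They were 16 of 191 on unique reads and 42 of 552 in the joint fit. For Z18truncZnFmut over Clover, loci higher numbered 11 of 184 with DESeq2, 7 of 125 on unique reads and 80 of 552 in the joint fit. Loci lower numbered 3 of 184 with DESeq2, 2 of 184 on aligned fragments and 0 of 66265 without the filter. They were 5 of 278 on either strand and 17 of 552 in the joint fit. For Z18trunc over Z18fl, loci higher numbered 5 of 520 with DESeq2, where 350 had no adjusted p, and 1 of 38222 without the filter. They were 3 of 552 in the joint fit and 7 of 520 with the replicate block. Loci lower numbered 4 of 520 with DESeq2, 4 of 520 on aligned fragments, 2 of 38222 without the filter and 2 of 552 in the joint fit. For Z18truncZnFmut over Z18trunc, 1 locus of 256 was higher on unique reads, and 1 of 398 was lower with DESeq2 and 2 of 398 on aligned fragments. Subfamilies higher numbered 26 on aligned fragments and 11 in the joint fit for Z18fl, 26 on aligned fragments for Z18trunc, and 4 with DESeq2 and 9 in the joint fit for Z18truncZnFmut.

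Some small differences turned sign. For Z18truncZnFmut less Z18trunc, the L1ME share was -0.0289 percentage points over every repeat class, and the log2 ratio to L2 was 0.127 on either strand. The sense share of Z18trunc less Z18fl was -0.195 percentage points on unique reads. Among subfamilies that did not pass the test on trimmed-mean scaling, L1MEg1, L1ME3A and L1ME4c had log2 fold changes on aligned fragments of 0.25, 0.35 and 0.39 for Z18fl and 0.33, 0.48 and 0.41 for Z18trunc, and L1MEg1 and L1ME4c of 0.47 and 0.96 for Z18truncZnFmut. Of these, L1ME3A and L1ME4c gained the call in Z18fl and Z18trunc. For Z18trunc, L1MEg1 was 0.0127 and L1ME4b -0.0037 on unique reads, L1ME4c 0.0088 on either strand, and L1ME3A 0.0058 without the filter, 0.0474 on either strand, 0.0339 with every repeat class and 0.0010 in the joint fit. L1ME4c for Z18truncZnFmut was 0.0617 on either strand.

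Leaving out each library in turn gave 71 to 144 loci higher and 19 to 47 lower for Z18fl over Clover, 58 to 141 and 9 to 33 for Z18trunc, 10 to 22 and 1 to 6 for Z18truncZnFmut, 1 to 9 and 1 to 10 for Z18trunc over Z18fl, and 0 higher and 0 to 1 lower for Z18truncZnFmut over Z18trunc. In the same order, the number of L1ME loci tested ranged from 218 to 491, 212 to 545, 155 to 319, 601 to 642 and 489 to 553. Subfamilies higher ranged from 13 to 17, 12 to 17 and 0 to 8 over Clover for Z18fl, Z18trunc and Z18truncZnFmut, and 0 to 1 was lower for Z18fl. For Z18trunc less Z18fl the level ranged from -10.9 to 195 CPM, the L1ME share from -0.238 to 0.0572 percentage points and the sense share from -1.03 to 1.75. For Z18truncZnFmut less Z18trunc the level ranged from -329 to 1059 CPM, the L1ME share from -0.374 to 0.671, the AT content from -0.416 to 1.49 percentage points and the log2 ratio to L1MC and L1MD from -0.0148 to 0.0998. For Z18truncZnFmut less Clover the intron share ranged from -2.99 to 7.65 and the sense share from -0.354 to 5.79 percentage points, and the log2 fold change of L1ME3A, Z18trunc vs Clover, ranged from -0.0619 to 0.0282.

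Replicate numbers did not pair the libraries, since 0 of 15 same-number correlations of deviations exceeded 0.1 and 4 of 15 were highest for the library's own number. With the replicate block, L1ME calls were 91 higher and 32 lower for Z18fl, 88 and 18 for Z18trunc and 15 and 8 for Z18truncZnFmut over Clover, and 7 and 8 for Z18trunc over Z18fl.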
